A study of Mus musculus with 6 samples.

Results

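The genes described here are 7 enzymes of cholesterol synthesis, chosen by symbol: Hmgcs1, Idi1, Fdps, Fdft1, Sqle, Lss and Cyp51. Of these, 6 had a row among the 12023 genes of the count table, and 4 (Hmgcs1, Fdps, Sqle and Cyp51) held enough counts to be tested among 8752 genes. Idi1 and Lss had 17 and 21 counts over all libraries, and Fdft1 is not analysed here. The counts came from primary fibroblasts cultured from mammary fat pads of healthy females, aged 8 to 12 weeks, of the inbred strains BALB/c and C57BL/6, with 3 biological replicates per strain. Cells of both strains were released by collagenase and DNase, plated on collagen and cultured for 4 days, and reads were counted at the 3′ ends of polyadenylated RNA. A magnetic separation step is named in the design text without its target. The series asks how the fibroblasts of the strains differ at baseline.

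Cells make cholesterol from acetyl-CoA through mevalonate and the isoprenoid farnesyl diphosphate, which is then committed to sterols as squalene. When sterols in the endoplasmic reticulum run low, the protein Scap carries the transcription factor SREBP-2 to the Golgi, where proteases free its active part, and most enzymes of the pathway are its targets. Fibroblasts in culture were the cells in which much of this feedback was worked out, and the cholesterol in their serum is known to lower the pathway.

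Total counts ran from 1035485 to 4665896 per library, and C57BL/6 replicate 1 stood apart from the other 5 libraries, so strain differences are given with and without it. In that library 15.1% of all tested genes were lower than in each of C57BL/6 replicates 2 and 3 by a factor of 4 or more, a rule chosen after seeing the data. Markers of fibroblasts were present in every library, in CPM (counts-per-million units, relative to TMM-scaled library totals) summed over 8 genes. These sums were 6440, 1510 and 4020 CPM in BALB/c replicates 1, 2 and 3 and 1540, 7760 and 2740 CPM in C57BL/6 replicates 1, 2 and 3. The cultures also held mammary epithelial markers, 8 of 8 listed. They were at 1390, 8500 and 6690 CPM in BALB/c replicates 1, 2 and 3 and at 12900, 2520 and 7530 CPM in C57BL/6 replicates 1, 2 and 3. The epithelial sum was above the fibroblast sum in BALB/c replicates 2 and 3 and in C57BL/6 replicates 1 and 3. Macrophage markers, 8 of 8, summed to 566 to 830 CPM (BALB/c) and 783 to 1460 CPM (C57BL/6), and pericyte and smooth muscle markers, 6 of 6, to 318 to 508 and 669 to 830 CPM. Endothelial markers, 4 of 5, summed to 25.1 to 58.1 and 36.7 to 47.4 CPM, without Tek in the table used here. Of 8 adipocyte markers 3 had a row, at 48.7 to 75.7 CPM in all, and the defining Adipoq, Plin1 and Lep had none. In such bulk cultures fewer cells of a type and less RNA per cell cannot be told apart.

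The promoters of the tested enzymes for which RefSeq's table has an entry, Hmgcs1 and Cyp51, are shown because SREBP-2 is known to act on this pathway through promoter elements near the start. Both windows are on GRCm38.p6 and run from 250 bases before to 50 after the start in that table, 5′ to 3′ on the gene's strand. For both genes that start differs from the one in the gene coordinates given below, which are from another annotation. Capitals mark matches to TCACNCCAC, the core of the classical sterol regulatory element, or to CCAAT, the box bound by the partner factor NF-Y, on either strand.
Hmgcs1, chr13:119690101-119690400, plus strand: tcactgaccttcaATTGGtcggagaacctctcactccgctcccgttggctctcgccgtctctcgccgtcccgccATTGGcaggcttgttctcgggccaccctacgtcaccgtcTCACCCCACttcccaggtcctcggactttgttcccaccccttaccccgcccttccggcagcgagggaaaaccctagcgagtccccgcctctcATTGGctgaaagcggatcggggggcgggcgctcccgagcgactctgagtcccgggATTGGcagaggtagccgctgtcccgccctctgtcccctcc
Cyp51, chr5:4104648-4104947, minus strand: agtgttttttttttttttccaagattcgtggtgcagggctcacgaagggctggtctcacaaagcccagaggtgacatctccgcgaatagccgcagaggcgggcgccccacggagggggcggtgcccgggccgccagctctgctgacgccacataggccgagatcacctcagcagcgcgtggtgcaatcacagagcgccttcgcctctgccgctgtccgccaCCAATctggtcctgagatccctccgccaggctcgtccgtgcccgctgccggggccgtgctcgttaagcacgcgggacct
The Hmgcs1 window held 1 match to TCACNCCAC, with its first base at -137 from the start, and 4 to CCAAT. The Cyp51 window held 1 match to CCAAT, at -29, and none to TCACNCCAC, which says only that these letters are not in this window. Entries were found for 4 of the 7 members, Idi1 and Lss being the others, of which 1 held TCACNCCAC and 4 held CCAAT. Over all 32851 promoter windows 1.24% held TCACNCCAC and 37.4% held CCAAT. The matched stretches do not overlap each other, and the motifs were chosen after these promoters had been read.

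No difference between the strains passed the test in the 4 tested enzymes. All 4 had higher estimates in BALB/c, by 0.40 to 0.69 on the log2 scale with a median of 0.56. Over all 8752 tested genes 4468 estimates were higher and 4284 lower, with a median of 0.014. By edgeR's quasi-likelihood test 0 of the 4 passed an adjusted p of 0.05, where 0.206% of all tested genes passed. The count at an unadjusted p under 0.05 was 0 of the 4, where 338 of all 8752 tested genes were. DESeq2 and limma-voom, with and without library quality weights, also called 0 of the 4. Without C57BL/6 replicate 1 the estimates ran from 0.08 to 0.65 with a median of 0.30 and 0 passed, where 0.276% of 9065 tested genes passed.

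**Figure D1:**
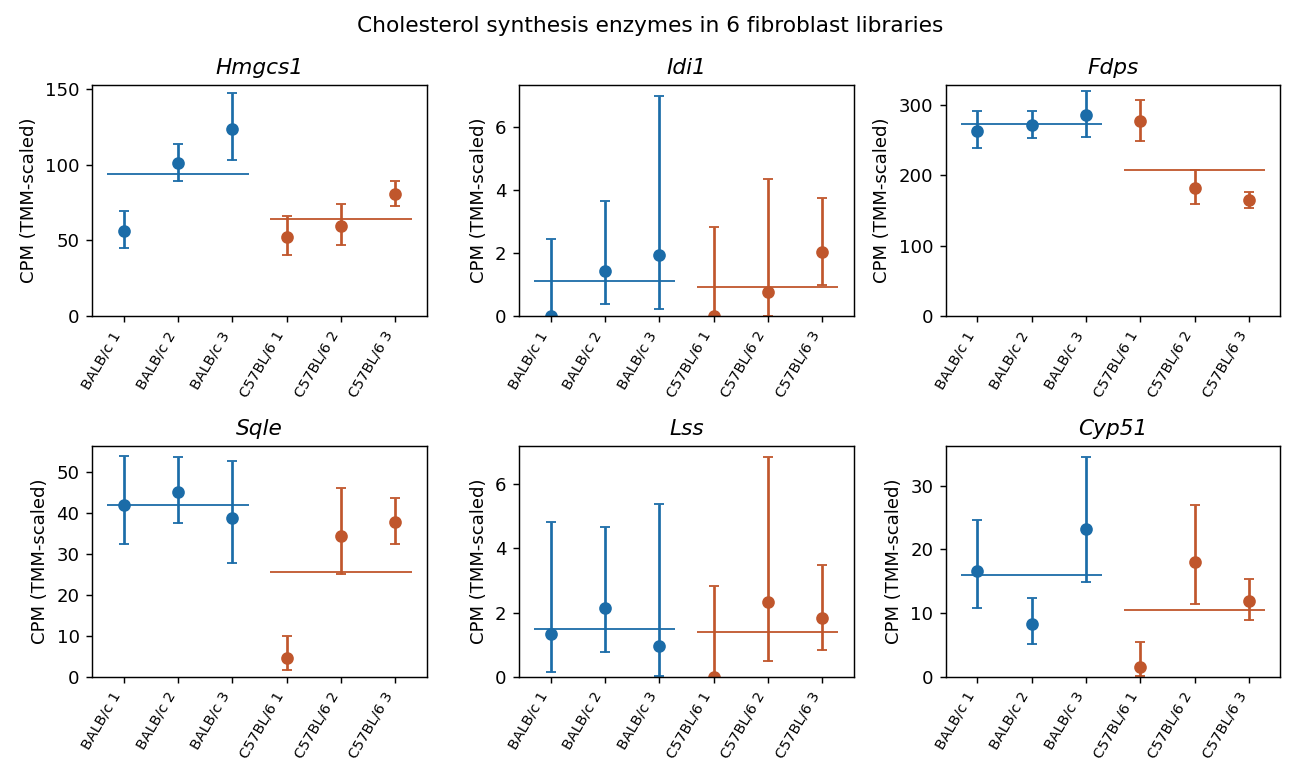
Level of the 6 enzymes with a row in the table, in CPM on TMM-scaled library totals, in each of the 3 BALB/c (blue) and 3 C57BL/6 (orange) libraries. Points are libraries, error bars are exact 95% counting intervals and horizontal lines are strain means; Sqle and Cyp51 are lowest in C57BL/6 replicate 1, at 4.58 and 1.53 CPM, and Fdps is not.

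Hmgcs1 encodes the cytosolic HMG-CoA synthase, which makes the precursor of mevalonate. Its level was 56.0, 101 and 124 CPM in BALB/c replicates 1, 2 and 3 and 51.9, 59.4 and 80.6 CPM in C57BL/6 replicates 1, 2 and 3. The strains overlapped, since BALB/c replicate 1 lay below C57BL/6 replicates 2 and 3. The means were 93.6 ± 34.5 and 64.0 ± 14.9 CPM (SD, n = 3 each), and the estimate for BALB/c over C57BL/6 was a log2 difference of 0.54 ± 0.35 (SE, edgeR adjusted p = 0.954). Without C57BL/6 replicate 1 it was 0.40 ± 0.36 (edgeR adjusted p = 0.999). With an offset for the GC content and length of the whole transcript the difference was -0.18 ± 0.54, so its sign depended on that choice. The gene lies at chromosome 13, 119690379 to 119708260, on GRCm38, and an exon of Gm48342 on the opposite strand overlaps it.

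Hmgcs1 was lowest in the same libraries as the markers of epithelium within BALB/c, where replicate 1 had 56.0 CPM of Hmgcs1 and 1390 CPM of the markers. C57BL/6 replicate 1 went the other way, with the lowest Hmgcs1 of its strain and the most epithelial marker RNA, 12900 CPM. Whether the share of epithelial cells had a part in these levels was not tested.

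Idi1 encodes isopentenyl diphosphate isomerase, which supplies both isoprene units that the next enzyme joins. It had 0, 4 and 2 counts in BALB/c replicates 1, 2 and 3 and 0, 1 and 10 counts in C57BL/6 replicates 1, 2 and 3. Summed over the strains these were 6 and 11 counts, a ratio of 0.767 after scaling to library size (95% counting interval 0.233 to 2.26). A difference was not detectable at this depth. As a one-sided 95% limit a count of 0 allows 3 counts, or 2.00 CPM in BALB/c replicate 1 and 2.29 CPM in C57BL/6 replicate 1. The two-sided 95% counting intervals there reach 2.46 and 2.82 CPM. The gene is at chromosome 13, 8885501 to 8892451, where its exons overlap those of Gm48574 on the opposite strand.

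Fdps, farnesyl diphosphate synthase, makes the last intermediate shared by sterols and the other isoprenoids. It was at 263, 271 and 285 CPM in BALB/c replicates 1, 2 and 3 and at 277, 182 and 164 CPM in C57BL/6 replicates 1, 2 and 3. The BALB/c libraries lay close together, C57BL/6 replicate 1 lay among them, and C57BL/6 replicates 2 and 3 lay below. With all libraries the means were 273 ± 11.2 and 208 ± 60.3 CPM (SD, n = 3 each), a log2 difference of 0.40 ± 0.26 (edgeR adjusted p = 0.954).

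Without C57BL/6 replicate 1 the log2 difference of Fdps was 0.65 ± 0.17, larger by over 1.5 times, with an edgeR adjusted p of 0.450. This was the nearest of the 4 tested members to the threshold in that fit, and it did not pass. Its unadjusted p there was 0.00578 (edgeR), where 454 of 9065 tested genes were under 0.05. With limma-voom and library quality weights its unadjusted p was 0.0012, where 1050 of 8752 tested genes were under 0.05. In 16 alternatives the estimate ran from 0.23 to 0.70 and the adjusted p from 0.0985 to 1, and the lowest came from limma-voom with library quality weights. Fdps lies at chromosome 3, 89093588 to 89101959, where its exons overlap those of Gm43738 on the same strand. Its last 500 nt met the search limits for near-identical copies in 6 other annotated genes, the longest match being 448 nt in the processed pseudogene Gm5873, so its count is uncertain to the extent that shared reads were split or dropped.

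Fdft1, squalene synthase, commits farnesyl diphosphate to sterols, and it is not analysed here. Its annotated exons, at chromosome 14, 63145150 to 63179578, overlap those of Ctsb on the opposite strand, and the last 500 nt of its longest coding transcript match that gene's transcripts over 500 nt. Reads of such a pair can be told apart only where the strand is counted, and no source used here says whether it was.

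Sqle encodes squalene epoxidase, the first oxygenation and a rate-limiting step of the sterol arm. It was at 42.0, 45.1 and 38.7 CPM in BALB/c replicates 1, 2 and 3 and at 4.58, 34.4 and 37.7 CPM in C57BL/6 replicates 1, 2 and 3. Of all 6 libraries only C57BL/6 replicate 1 was far from the rest, with 6 counts and a 95% counting interval of 1.68 to 9.98 CPM. The other 5 libraries spanned 0.38 on the log2 scale, against 3.06 for all 6. Every BALB/c library was above every C57BL/6 library, but by a margin of 38.7 against 37.7 CPM that is well inside the counting intervals of 27.7 to 52.7 and 32.5 to 43.6 CPM. The log2 difference was 0.69 ± 0.63 (edgeR adjusted p = 0.954), and 0.21 ± 0.22 without C57BL/6 replicate 1 (edgeR adjusted p = 0.999). Sqle is at chromosome 15, 59315077 to 59331192, with no overlapping exon or near-identical copy.

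Lss encodes lanosterol synthase, which closes the rings of the sterol skeleton. It had 2, 6 and 1 counts in BALB/c replicates 1, 2 and 3 and 0, 3 and 9 counts in C57BL/6 replicates 1, 2 and 3. The ratio of 9 counts in BALB/c to 12 in C57BL/6 was 1.05 after scaling to library size (95% counting interval 0.392 to 2.73), so a difference was not detectable at this depth. It is at chromosome 10, 76531588 to 76557138, where exons of 4930483K19Rik on the opposite strand overlap it.

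Cyp51 encodes the demethylase that removes the 14-alpha methyl group of lanosterol. It was at 16.7, 8.23 and 23.2 CPM in BALB/c replicates 1, 2 and 3 and at 1.53, 18.0 and 11.8 CPM in C57BL/6 replicates 1, 2 and 3. The strains overlapped, and the lowest value, from 2 counts in C57BL/6 replicate 1, had a 95% counting interval of 0.185 to 5.52 CPM. The log2 difference was 0.57 ± 0.77 (edgeR adjusted p = 0.954) and 0.08 ± 0.50 without C57BL/6 replicate 1 (edgeR adjusted p = 0.999). The gene is at chromosome 5, 4081145 to 4104746, and exons of Akap9 on the opposite strand overlap it, with a match of 166 nt in the last 500 nt.

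Of the 4 tested members 1, Sqle, had every BALB/c library above every C57BL/6 library, where 5.15% of all tested genes did. Leaving out C57BL/6 replicate 1, Fdps and Sqle did, where 9.13% of the genes tested without it did. The members did not share 1 profile over the libraries. Centred on its own mean over the 6 libraries, log2 CPM in C57BL/6 replicate 1 was -2.39 for Sqle, -2.22 for Cyp51, -0.52 for Hmgcs1 and 0.23 for Fdps. In BALB/c replicate 2 it was -0.33 for Cyp51 and 0.67 for Sqle, which act in the same arm.

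The other enzymes of the pathway gave no call either. Of 15 other enzymes of the pathway 14 were tested and 0 passed in edgeR, DESeq2 or limma-voom. In edgeR 1 had an unadjusted p under 0.05, beside 338 of all 8752 tested genes. Estimates were higher in BALB/c for 11 and lower for 3, with a median log2 difference of 0.27, and of 0.33 without C57BL/6 replicate 1, with 12 higher and 2 lower. In 3 of the 14, Lbr, Msmo1 and Nsdhl, every BALB/c library lay above every C57BL/6 library, beside the 5.15% of all tested genes. Without C57BL/6 replicate 1 Pmvk and Tm7sf2 joined them, making 5 of the 14, beside 9.13% of the genes tested in that fit.

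Those 3 genes act after Cyp51. Msmo1, the sterol C4-methyl oxidase, was at 41.4, 49.4 and 51.3 CPM in BALB/c replicates 1, 2 and 3 and at 1.53, 28.9 and 26.7 CPM in C57BL/6 replicates 1, 2 and 3. Its log2 difference was 1.28 ± 0.75 (edgeR adjusted p = 0.954), and 0.76 ± 0.24 without C57BL/6 replicate 1 (edgeR adjusted p = 0.708). Nsdhl, the dehydrogenase of the same demethylation, was at 30.0, 53.0 and 55.2 CPM in the BALB/c libraries and at 7.64, 21.1 and 27.1 CPM in the C57BL/6 libraries. The estimate for Nsdhl was 1.27 ± 0.50 on the log2 scale, and 0.90 ± 0.34 without C57BL/6 replicate 1 (edgeR adjusted p = 0.954 and 0.939). The BALB/c libraries of both genes stayed above C57BL/6 replicates 2 and 3 as well as replicate 1.

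Lbr, the lamin B receptor, which also has sterol C14-reductase activity, was at 22.0, 25.4 and 13.5 CPM in the BALB/c libraries and 0.764, 11.7 and 9.39 CPM in the C57BL/6 libraries. Its estimate was 1.45 ± 0.72 on the log2 scale, and 0.99 ± 0.38 with that first C57BL/6 library left out (edgeR adjusted p = 0.954 and 0.950). Exons of Dnah14 on the opposite strand overlap it. Tm7sf2, the other C14-reductase, was at 14.7, 18.6 and 17.4 CPM in the BALB/c libraries and 19.1, 7.03 and 7.75 CPM in the C57BL/6 libraries, so that C57BL/6 replicate 1 was the highest library there. Its log2 difference was 0.61 ± 0.49 with all libraries and 1.17 ± 0.35 without C57BL/6 replicate 1 (edgeR adjusted p = 0.954 and 0.697).

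**Figure D2:**
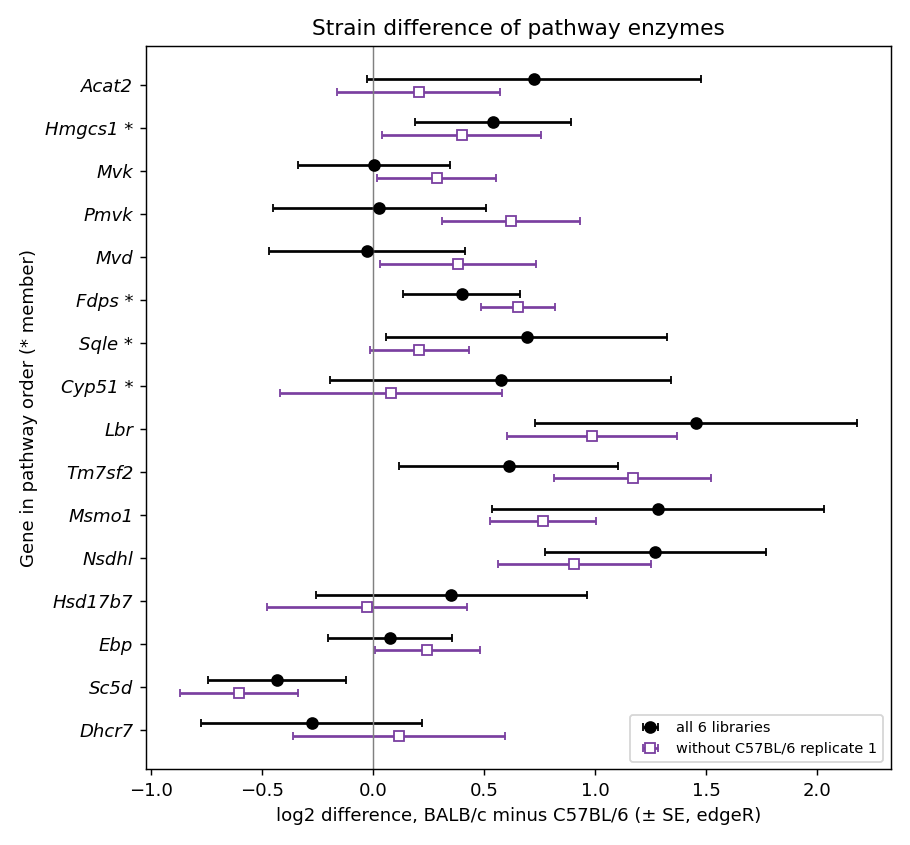
Strain difference (BALB/c minus C57BL/6, log2) on the horizontal axis, with error bars of 1 standard error from edgeR, for the 4 tested members (asterisks) and 12 of the 14 other tested enzymes in pathway order, with all 6 libraries (filled circles) and without C57BL/6 replicate 1 (open squares). None passed an adjusted p of 0.05 in either fit; leaving out that library moved Sqle from 0.69 to 0.21 and Fdps from 0.40 to 0.65.

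Dhcr7, which makes cholesterol from its precursor 7-dehydrocholesterol, varied with other libraries, at 32.0, 83.0 and 77.4 CPM in BALB/c replicates 1, 2 and 3 and 118, 39.1 and 76.9 CPM in C57BL/6 replicates 1, 2 and 3. It was lowest in BALB/c replicate 1 and C57BL/6 replicate 2, the libraries with the least epithelial marker RNA, 1390 and 2520 CPM. The part of the epithelial cells in this was not tested. Sqle, at 42.0 and 34.4 CPM there, was lowest in C57BL/6 replicate 1, and Fdps, at 263 and 182 CPM there, was lowest in C57BL/6 replicate 3.

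**Figure D3:**
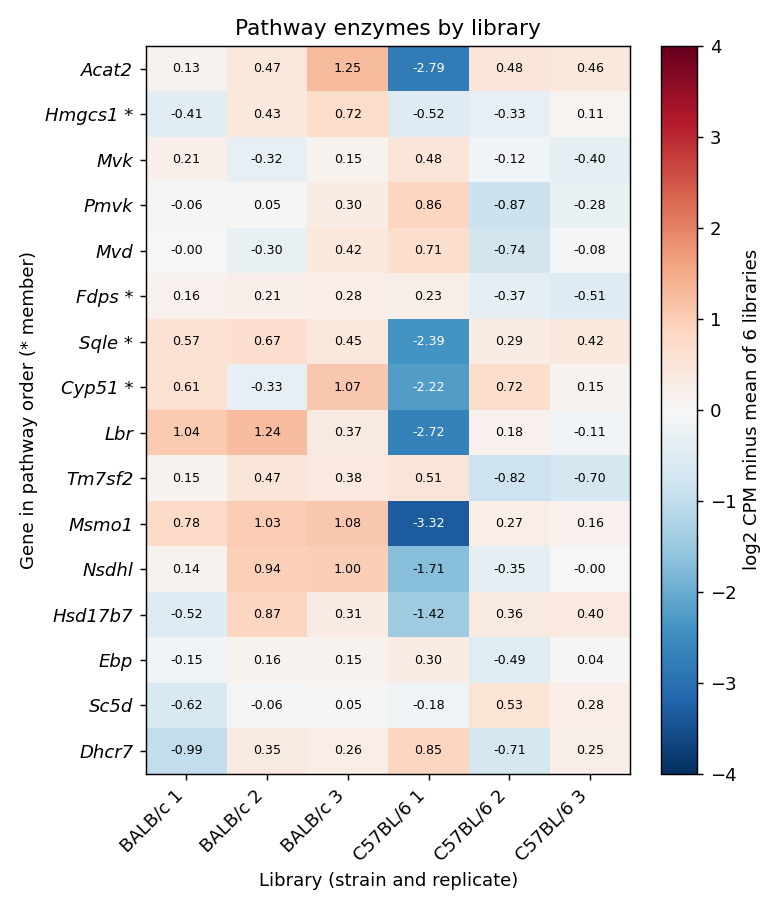
Log2 CPM of 16 of the 18 tested enzymes (rows in pathway order, members with asterisks) in the 6 libraries (columns), centred on each gene's mean over the libraries, with the value printed in each cell. C57BL/6 replicate 1 is lowest for Sqle (-2.39), Cyp51 (-2.22) and Msmo1 (-3.32) and above the mean for Fdps (0.23) and Dhcr7 (0.85).

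C57BL/6 replicate 1 split the pathway. Sqle and Cyp51, 2 of the 4 tested members, met the rule of a level lower by a factor of 4 or more than in both replicates 2 and 3, where 15.1% of all tested genes did, and so did 3 of the 14 other enzymes. Relative to the mean log2 CPM of the other 5 libraries Sqle was at -2.87, Cyp51 at -2.67, Hmgcs1 at -0.62 and Fdps at 0.28. Acat2, the cytosolic thiolase at the head of the pathway, was at -3.35 and Msmo1 at -3.99. Mvk, Pmvk and Mvd, the mevalonate kinases and decarboxylase, were at 0.58, 1.03 and 0.86.

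The split, noticed after seeing the values, went along with base composition. The last 500 nt of the longest coding transcript were 34% GC in Cyp51, 36% in Hmgcs1, 42.2% in Sqle and 52.8% in Fdps, with a median of 45.6% over the tested genes. Of the 18 tested enzymes, members included, the 8 that were above the mean of the other libraries had 48.4% to 58.4% GC and the 10 that were below had 34% to 45%. Over all tested genes the share at least 4-fold low in that library was 49% below 36% GC, 18.9% between 40% and 44% and 0.102% at 52% or more. The enzymes above the mean also had transcripts of 1194 to 4028 nt and those below of 2044 to 4787 nt. Hmgcs1, at 36% GC, was at -0.62 relative to the mean of the other libraries. The part of GC content, length or RNA quality in the low values of Sqle and Cyp51 was not tested.

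**Figure D4:**
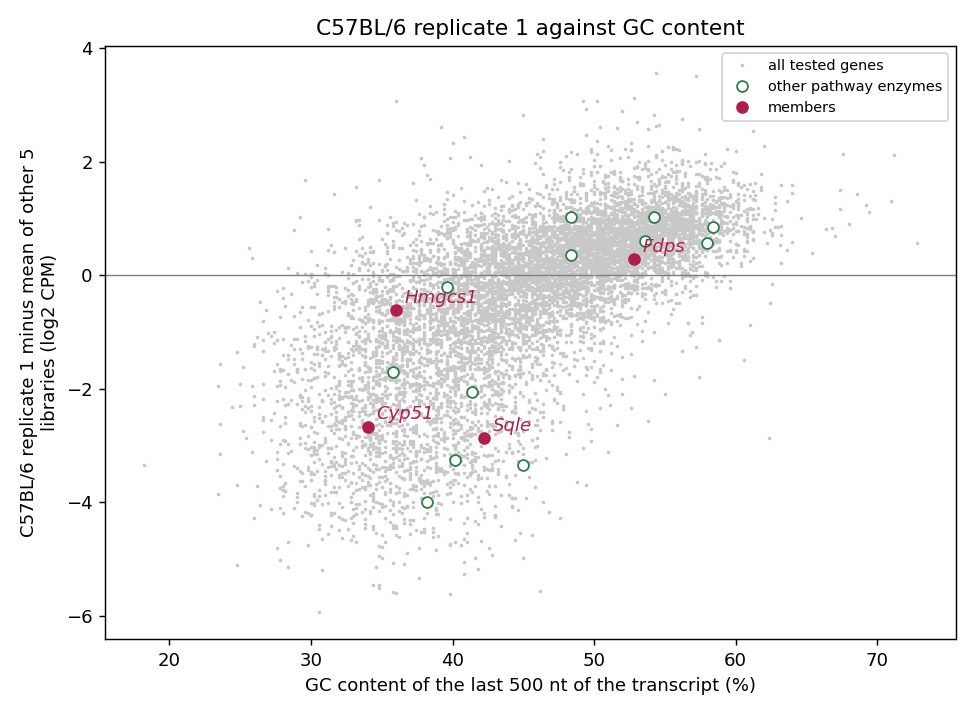
Log2 CPM of C57BL/6 replicate 1 minus the mean of the other 5 libraries (vertical axis) against the GC content of the last 500 nt of the transcript in percent (horizontal axis), for all tested genes (grey), the 4 tested members (red) and 12 of the 14 other enzymes (open green). Sqle (-2.87, 42.2% GC) lies below the median of -0.677 for tested genes of 40% to 44% GC. Cyp51 (-2.67, 34% GC) lies below the median of -1.94 for those below 36%. Fdps (0.28, 52.8% GC) lies below the median of 0.784 for those at 52% or more.

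Genes that control the pathway or take up cholesterol did not pass either. Of 14 listed, 11 were tested, 6 with a higher and 5 with a lower estimate in BALB/c and a median of 0.051. Calls by edgeR, DESeq2 and limma-voom were 0. The count at an unadjusted p under 0.05 was 0, beside 338 of all 8752 tested genes in edgeR. Leaving out C57BL/6 replicate 1 also gave 6 higher and 5 lower, with a median of 0.10 and 0 called by edgeR. Srebf2, which encodes SREBP-2, had a mean of 57.4 ± 8.67 CPM over the BALB/c libraries and of 73.1 ± 37.1 CPM over the C57BL/6 libraries (SD, n = 3 each), with its highest value, 115 CPM, in C57BL/6 replicate 1. Its direction rested on that library: the log2 estimate was -0.34 ± 0.39 with it and 0.11 ± 0.26 without it (edgeR adjusted p = 0.954 and 0.999). Insig1, which retains Scap in the endoplasmic reticulum and is itself a target of SREBP-2, had means of 17.3 ± 7.74 and 14.3 ± 1.96 CPM (SD, n = 3 each). Its log2 difference of 0.28 ± 0.44 (edgeR adjusted p = 0.954) was smaller than its error, and so was the value without C57BL/6 replicate 1, 0.22 ± 0.45. Insig2 was low in C57BL/6 replicate 1, at 3.82 CPM against 25.8 and 27.8 CPM in the other C57BL/6 libraries, and its log2 estimate was 0.65 ± 0.63 with that library and 0.19 ± 0.30 without it.

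Genes of cholesterol efflux, storage and LXR, the sensor of excess sterol, gave 6 tested of 11 listed. Of these 2 were higher and 4 lower in BALB/c, with a median of -0.17 and 0 called by edgeR, DESeq2 or limma-voom. In edgeR 1 was at an unadjusted p under 0.05, beside 338 of all 8752 tested genes. Leaving out C57BL/6 replicate 1 gave 0 higher and 6 lower, with a median of -0.16 and 0 called by edgeR. Apoe, the apolipoprotein that carries cholesterol out of cells, was at 155, 153 and 201 CPM in BALB/c replicates 1, 2 and 3 and at 492, 244 and 237 CPM in C57BL/6 replicates 1, 2 and 3. Every BALB/c library was below every C57BL/6 library, as in 6.22% of all tested genes, and the log2 difference was -0.93 ± 0.35 (edgeR adjusted p = 0.954). Without C57BL/6 replicate 1 the BALB/c libraries were still below, and the difference was -0.51 ± 0.19 (edgeR adjusted p = 0.934). Macrophages are known to express Apoe. Their markers summed to 830, 566 and 789 CPM in BALB/c replicates 1, 2 and 3. In C57BL/6 replicates 1, 2 and 3 the sums were 1460, 783 and 1190 CPM. The part of macrophages in the Apoe levels was not tested. Nr1h2, one of the genes for LXR, gave an estimate of -0.54 ± 0.36 on the log2 scale with C57BL/6 replicate 1, its highest library at 267 CPM, and of -0.14 ± 0.25 without it (edgeR adjusted p = 0.954 and 0.999).

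Fatty acid synthesis, which is under the related SREBP-1, had 8 tested genes of 11 listed. All 8 had a higher estimate in BALB/c, beside 4468 of all 8752 tested genes, and their median was 0.61. Calls by edgeR, DESeq2 or limma-voom were 0, and 2 had an unadjusted p under 0.05 in edgeR, beside 338 of all 8752. Without C57BL/6 replicate 1 the median was 0.33, with 7 higher and 1 lower, beside 0.30 for the cholesterol synthesis members. Scd2, a desaturase, was at 252, 210 and 256 CPM in the BALB/c libraries and 22.2, 320 and 193 CPM in the C57BL/6 libraries, and its log2 difference went from 0.42 to -0.10 without C57BL/6 replicate 1. Fads1, which makes polyunsaturated fatty acids, was at 301, 173 and 219 CPM in the BALB/c libraries and 83.3, 174 and 123 CPM in the C57BL/6 libraries. Its log2 estimate was 0.86 ± 0.35, and 0.63 ± 0.28 without C57BL/6 replicate 1 (edgeR adjusted p = 0.954 and 0.999).

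Among 4451 other tested genes whose log2 CPM averaged 5 or more, 4 of the 5 most like the mean profile of the 4 tested members were Smarcc1, a subunit of a chromatin remodelling complex, Suv39h1, a histone methyltransferase, Kdm5b, a histone demethylase, and Ciao2a. Likeness was the root mean square difference of centred log2 CPM over the 6 libraries, and it was 0.0902 to 0.147 for these genes. The members were at 0.433 for Hmgcs1, 0.559 for Sqle, 0.589 for Cyp51 and 0.678 for Fdps from their own mean. The other genes were picked as the closest of 4451, so their smaller distances follow from that choice. The mean profile was -1.23 in C57BL/6 replicate 1 and 0.04 to 0.63 in the other 5 libraries, so the low value of that library sets most of it.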

How the data were processed

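The authors deposited raw counts per gene symbol for 6 libraries. The submitters' processing notes name STAR 2.4.2a, HTSeq, bcl2fastq and the build mm10. No source used here gives the annotation, or how strand, shared reads and duplicate molecules were handled, and BALB/c alleles that differ from the reference may align less often. Strain differences were tested with edgeR 4.0.16 (R 4.3.3): filterByExpr, TMM scaling, a robust quasi-likelihood fit on strain, two-sided, with Benjamini-Hochberg adjustment over all tested genes. Each SE given with an edgeR estimate is the absolute log2 difference divided by the square root of its quasi-likelihood F statistic. CPM are on TMM-scaled totals, log2 CPM have a prior count of 2, and intervals and floors cover counting error only. The script was tested on simulated data. Annotation was GENCODE vM21 on GRCm38, the assembly of mm10, with BLAST+ 2.17.0 at 95% identity over at least 60 nt for copies. Within each strain no library was a copy of another: chi-square values divided by their degrees of freedom were 10.8 to 57.2. Pairs across the strains were not compared in this way. Members and lists were chosen with earlier results of these data known. All members were named, with genes of the pathway lists by a fixed rule, and list genes not named are in the counts only; a few items are not reported here. Alternatives were other scalings, filters and tests (DESeq2 1.42.0, limma 3.58.1), a replicate block, leaving out each library, and a GC and length offset. That offset used the GC content of the whole transcript, not that of its last 500 nt.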

Additional observations from a re-analysis of the deposited data

How the results depend on the processing

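The 4 tested members passed the threshold in none of the alternatives run. Their median log2 difference ran from 0.30 to 0.71, beside 0.56 in the main fit, and was 0.30 without C57BL/6 replicate 1. These shifts were smaller than the SD between replicates of the members' mean log2 CPM, a wide limit that includes the low C57BL/6 replicate 1. Directions held except that Hmgcs1 was -0.18 with the GC and length offset, chosen after seeing the data. Cyp51 could not be fitted at a mean of at least 50 counts, and Idi1, Lss and Fdft1 had no main value. The number of all genes past the threshold was 18, 6 higher and 12 lower in BALB/c. It was 11 with library totals alone, 5 higher and 6 lower, 71 with DESeq2, 3 with limma-voom and 57 with library quality weights. It ran from 0 to 25 with 1 library left out: 4 without BALB/c replicate 1, 5 without C57BL/6 replicate 2, 25 without C57BL/6 replicate 1 and 0 when BALB/c replicate 2 was left out, or replicate 3 of either strain, where 205, 226 (BALB/c) and 261 (C57BL/6) genes had an unadjusted p under 0.05 in edgeR. The cause was not tested. With the replicate number as a block edgeR called 0 genes, with 158 at an unadjusted p under 0.05. Deviations of same-numbered libraries correlated at -0.419, -0.397 and -0.0775 across genes, and no library correlated best with its own number. Deviations centred within strains of 3 libraries constrain each other, so these values cannot decide whether same-numbered libraries were prepared together. Depth limits Idi1 and Lss.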
